A study of Mus musculus with 6 samples.

Results

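Genes of the S100, galectin and annexin families and the LIM-domain gene Crip1, 10 in all, were examined in lymph node T cells labelled deficient in Ezh2, the enzyme of Polycomb repressive complex 2 that methylates histone H3 at silenced genes. The genes were S100a4, S100a6, S100a10, S100a11, S100a13, Lgals1, Lgals3, Crip1, Anxa1 and Anxa2, and every probe set that the platform annotation gives 1 of these symbols alone was taken. This found 15 of the 45101 probe sets on the arrays, which cover 9 of the 10 genes, among 18193 genes named in all. S100a11 was not analysed here. The group was chosen by family and by the measured differences between deficient and fl/fl arrays of some of its genes, so the differences given for its members are descriptions of these 6 arrays and carry no test.

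The study measured total RNA on single-colour Affymetrix mouse arrays. There were 3 arrays of T cells from lymph nodes labelled Ezh2 deficient and 3 of T cells from lymph nodes labelled Ezh2 fl/fl, a notation for alleles flanked by loxP sites that a Cre recombinase can remove. The labels give no strain, age, sex, Cre driver or way of isolating the T cells, and do not say whether the arrays came from separate mice, so spreads between arrays may be partly technical. No detection calls or depth belong to these values, and the number of arrays limits the precision.

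S100 proteins are small proteins that mostly carry a pair of EF-hand calcium-binding loops, work as dimers and act by gripping other proteins when calcium rises. Annexins bind membrane phospholipids in the presence of calcium, and some of them bind an S100 dimer. Galectins bind beta-galactoside sugars on glycoproteins, inside or outside the cell. In mouse T cells, several of these genes and Crip1 are known to be expressed more strongly in effector and memory cells than in naive cells.

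Values are quantile-normalised intensities, on a linear scale, and log2 differences were taken as Ezh2 deficient minus Ezh2 fl/fl after adding a pseudocount of 43.4 intensity units, which understates the change of dim probe sets. The Ezh2 probe set averaged 282 ± 6.57 in deficient arrays and 688 ± 111 in fl/fl arrays (SD, n = 3 each), a log2 difference of -1.16 (SE 0.13) with no overlap and a limma adjusted p = 0.0707, above the threshold of 0.05. Where the deletion lies relative to this probe set is not given, so its signal is no measure of the share of cells without Ezh2. Of the T cell markers tested, 7 of 12 were lower and 5 higher, from Cd5 at 0.13 and Cd3g at 0.07 to Thy1 at -0.08 and Cd8b1 at -0.17. Limma called 0 of them. At an unadjusted p under 0.05, 1 was lower and 0 higher, where 3.36% of all tested probe sets were lower and 3.85% higher. It was Cd8b1, also the 1 marker whose groups did not overlap, where 7.79% of all tested genes were lower and 6.43% higher without overlap. The brightest marker was Cd3d, a chain of the T cell receptor complex, averaging 16496 in deficient arrays and 16865 in fl/fl arrays. Median deposited intensities ran from 163.3 to 188.1 over the 6 arrays, with the highest on Ezh2 fl/fl replicate 1.

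The promoters of S100a4, S100a6 and Crip1 are shown because these genes gave groups that did not overlap and the promoter table holds an entry for each. RefSeq promoter entries (GRCm38.p6) were found for 8 of the 10 genes, the others being Lgals1 and S100a10. Each sequence is the stretch of 250 bases before the annotated start, on the plus strand, at chr3:90603520-90603769 for S100a4, chr3:90612644-90612893 for S100a6 and chr12:113151762-113152011 for Crip1. Capitals mark CG dinucleotides, the TATA box TATAAA, the AP-1 motif TGANTCA and the GC box GGGCGG, each searched on both strands. CG can lie inside a GC box match.
S100a4: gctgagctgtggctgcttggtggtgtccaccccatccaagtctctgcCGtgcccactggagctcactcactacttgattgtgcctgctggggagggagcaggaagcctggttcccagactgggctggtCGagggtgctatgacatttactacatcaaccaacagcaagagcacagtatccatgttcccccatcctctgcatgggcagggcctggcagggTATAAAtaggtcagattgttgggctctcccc
S100a6: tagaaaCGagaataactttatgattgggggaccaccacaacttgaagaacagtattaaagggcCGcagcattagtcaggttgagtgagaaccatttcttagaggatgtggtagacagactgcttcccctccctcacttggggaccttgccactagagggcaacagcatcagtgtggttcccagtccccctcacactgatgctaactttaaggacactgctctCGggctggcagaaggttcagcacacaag
Crip1: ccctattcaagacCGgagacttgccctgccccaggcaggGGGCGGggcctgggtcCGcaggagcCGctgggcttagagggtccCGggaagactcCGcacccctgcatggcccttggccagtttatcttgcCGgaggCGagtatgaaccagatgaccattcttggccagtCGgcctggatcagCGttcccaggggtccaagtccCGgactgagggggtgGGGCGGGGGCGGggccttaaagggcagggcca

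The S100a4 and S100a6 promoters are poor in CG and the Crip1 promoter is richer. S100a4 has 2 CG, a count that 81.2% of the 32851 mouse promoter entries reach, S100a6 has 3, reached by 71.0%, and Crip1 has 13, reached by 31.5%. S100a13 and Lgals3 also have 13, S100a11 has 11, Anxa2 has 9 and Anxa1 has 2. A GC box stands in 32.7% of all entries of this length, and among the members it was found 3 times each for Crip1, S100a11 and Anxa2 and 1 time for Lgals3. TATAAA, present in 12.4% of entries, was found 1 time each for S100a4, Anxa1 and Anxa2, and TGANTCA, present in 6.7%, was found 2 times for S100a11 and 1 time for Anxa2. These matches describe the letters only, and they show no shared motif between S100a4 and S100a6 among those searched other than CG.

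S100a4 and S100a6 were the S100 genes that stood lower in the deficient T cells. S100a4, also called metastasin, binds the heavy chain of non-muscle myosin IIA, and its probe set (1424542_at) read 323, 388 and 208 in Ezh2 deficient replicates 1, 2 and 3, against 556, 535 and 597 in Ezh2 fl/fl replicates 1, 2 and 3. All deficient arrays lay below all fl/fl arrays, and the deficient arrays were the more spread. The means were 307 ± 91.0 in deficient arrays and 563 ± 31.6 in fl/fl arrays (SD, n = 3 each), with a log2 difference of -0.83 (SE 0.18). In a bulk sample such as this, fewer cells that express a gene and less RNA in each of them cannot be told apart.

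S100a6, or calcyclin, lies beside S100a4 in the S100 cluster with only S100a5 between them. Its probe set (1421375_a_at) read 381, 479 and 286 in deficient replicates 1, 2 and 3, against 733, 725 and 590 in fl/fl replicates 1, 2 and 3. The groups did not overlap, and deficient replicate 2 was the highest and replicate 3 the lowest of the deficient arrays for S100a4 and S100a6 alike. Among the fl/fl arrays the order differed, with replicate 3 the highest for S100a4 and the lowest for S100a6. S100a6 averaged 382 ± 96.5 in deficient arrays and 683 ± 80.5 in fl/fl arrays (SD, n = 3 each), a log2 difference of -0.79 (SE 0.17). Leaving out 1 array at a time kept the difference between -0.99 and -0.60 for S100a4 and between -0.95 and -0.62 for S100a6.

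**Figure D1:**
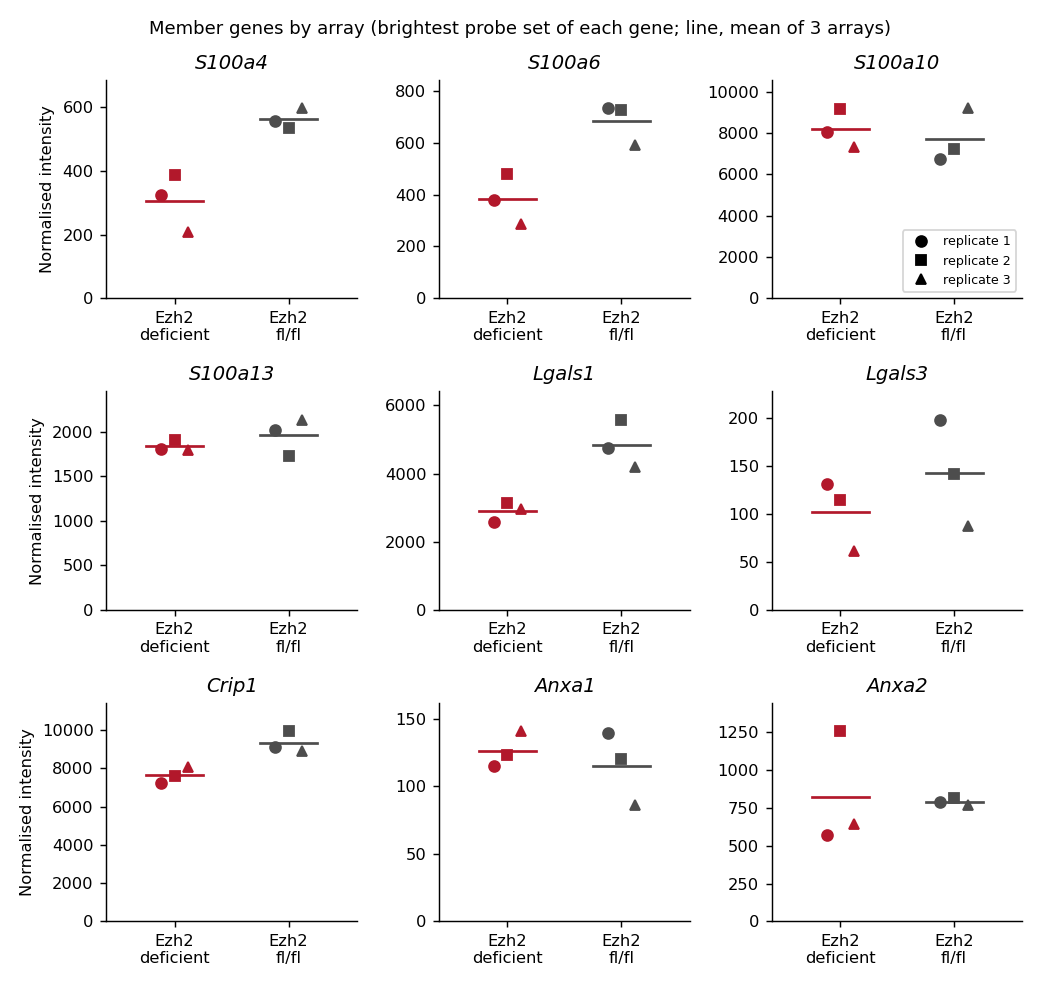
Normalised intensity (linear axis from 0) of the brightest probe set of each of the 9 member genes, with Ezh2 deficient arrays on the left and Ezh2 fl/fl arrays on the right of each panel. Points are arrays, marker shapes are replicate numbers within a group, and lines are means of 3 arrays. S100a4, S100a6, Lgals1 and Crip1 have no overlap between groups, and Anxa2 has 1 high deficient array at 1255.

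The other S100 members gave groups that overlapped. S100a10, or p11, has lost calcium binding and holds a pair of Anxa2 molecules in a membrane complex. The brightest of its 3 probe sets (1456642_x_at) read 8055, 9149 and 7333 in deficient replicates 1, 2 and 3, against 6714, 7214 and 9193 in fl/fl replicates 1, 2 and 3, so each group held both high and low arrays. Its log2 difference was 0.09 (SE 0.12), and the other probe sets were at 0.11 (SE 0.13) and 0.03 (SE 0.22). Ezh2 fl/fl replicate 1 was the lowest of the 6 arrays on all 3 probe sets, with 359 on the dimmest one where the other arrays ran from 558 to 703. Without that array the S100a10 difference was -0.00.

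S100a13, which takes part in the export of Fgf1 and Il1a by a route that bypasses the secretory pathway, was close between groups. It read 1808, 1908 and 1794 in deficient replicates 1, 2 and 3, against 2023, 1726 and 2136 in fl/fl replicates 1, 2 and 3. The fl/fl arrays spanned the whole range of the deficient arrays, and the log2 difference was -0.09 (SE 0.09).

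Of the galectins, Lgals1 was lower on both of its probe sets. It encodes galectin-1, a dimeric galectin that is released by activated T cells and binds the T cell glycoproteins CD7, CD43 and CD45. Its brighter probe set (1455439_a_at) read 2566, 3129 and 2969 in deficient replicates 1, 2 and 3, against 4758, 5577 and 4206 in fl/fl replicates 1, 2 and 3. The lowest fl/fl array stood well above the highest deficient array, and the log2 difference was -0.73 (SE 0.11).

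The dimmer Lgals1 probe set (1419573_a_at) read 1337, 2192 and 1915 in deficient replicates 1, 2 and 3, against 2532, 4369 and 2873 in fl/fl replicates 1, 2 and 3. It kept the groups apart as well, with fl/fl replicate 2 the highest array and deficient replicate 1 the lowest on both probe sets. Its log2 difference was -0.82 (SE 0.22). Deficient arrays held 59.6% of the fl/fl mean on the brighter probe set and 55.7% on the dimmer one.

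Lgals3 encodes galectin-3, whose sugar-binding domain carries a long tail that lets it form larger complexes. It was dim, at 131, 114 and 61.3 in deficient replicates 1, 2 and 3, against 198, 141 and 87.6 in fl/fl replicates 1, 2 and 3. The arrays of each group covered a wide range and the groups overlapped. The log2 difference was -0.34 (SE 0.28), and it was -0.12 without deficient replicate 3 and -0.57 without fl/fl replicate 3. Lgals3 passed the filter on dim probe sets with little to spare and was below it when fl/fl replicate 1 or fl/fl replicate 2 was left out.

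Crip1, a small protein made mostly of 1 zinc-binding LIM domain, differed by a small amount. It read 7251, 7598 and 8090 in deficient replicates 1, 2 and 3, against 9096, 9935 and 8900 in fl/fl replicates 1, 2 and 3. The groups did not overlap, with means of 7646 ± 422 in deficient arrays and 9311 ± 550 in fl/fl arrays (SD, n = 3 each). The log2 difference was -0.28 (SE 0.06), and -0.18 when the deposited values were centred on each array's median. With that centring deficient replicate 3 stood above fl/fl replicate 1, so the separation of the Crip1 groups depends on the normalisation.

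The annexins showed no common direction. Anxa2, the partner of S100a10, read 573, 1255 and 643 in deficient replicates 1, 2 and 3 on its tested probe set (1419091_a_at), against 789, 813 and 766 in fl/fl replicates 1, 2 and 3. A single deficient array, replicate 2, stood above all the others while the other two deficient arrays stood below all fl/fl arrays. The log2 difference was -0.02 (SE 0.24), and it was -0.36 without deficient replicate 2 and 0.18 without deficient replicate 1. The 2 other Anxa2 probe sets were below the filter. The first of these read no more than 7.12 on any array, and the second read 143, 52.8 and 132 in deficient replicates 1, 2 and 3, against 61.5, 71.0 and 19.7 in fl/fl replicates 1, 2 and 3.

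Anxa1, a protein induced by glucocorticoids that signals through formyl peptide receptors, was dim. Its tested probe set (1448213_at) read 115, 123 and 141 in deficient replicates 1, 2 and 3, against 140, 120 and 86.0 in fl/fl replicates 1, 2 and 3. The groups overlapped, and the log2 difference was 0.11 (SE 0.19), turning to -0.03 without fl/fl replicate 3. Its other probe set was below the filter, at 11.6, 20.7 and 20.6 in deficient replicates 1, 2 and 3 against 27.5, 56.0 and 77.3 in fl/fl replicates 1, 2 and 3. The dim probe set kept the groups apart with a log2 difference of -0.64, at levels near or under the pseudocount, where the tested one did not.

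**Figure D2:**
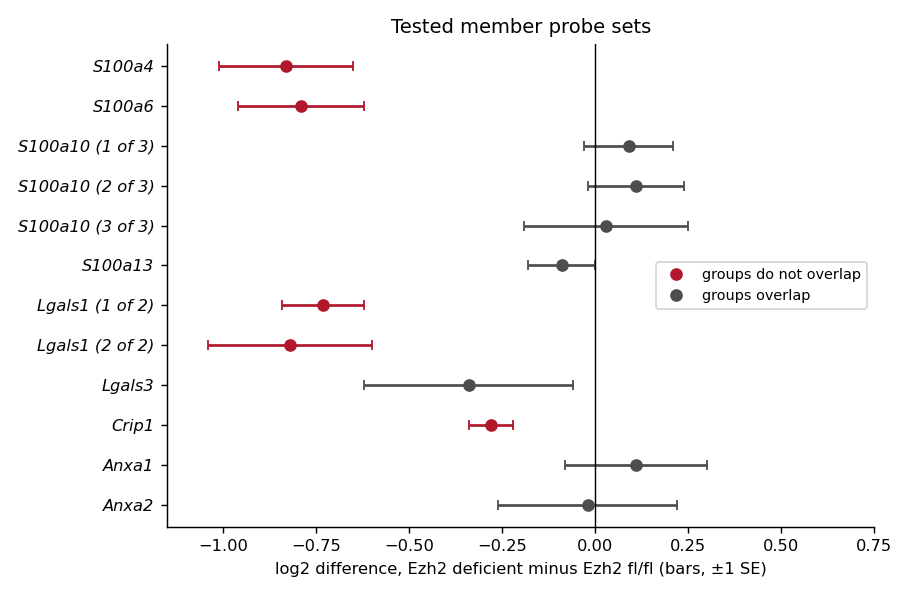
The log2 difference (horizontal axis, Ezh2 deficient minus Ezh2 fl/fl) of the 12 tested member probe sets, with bars of 1 SE from limma over 3 arrays in each group. Red points mark probe sets whose groups do not overlap, which are those of S100a4, S100a6, Lgals1 and Crip1, all below 0.

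Of the 15 member probe sets, 12 passed the filter on dim values, covering all 9 genes. By brightest probe set, 7 of the 9 genes were lower and 2 higher, with a median log2 difference of -0.28, against -0.010 over all 12275 tested genes, of which 53.1% were lower. The lower genes include Anxa2 at -0.02, and they numbered 5 with median centring and 6 to 8 with 1 array left out. The median was -0.12 without deficient replicate 3, -0.18 without fl/fl replicate 1, -0.18 with median centring and -0.19 with a pseudocount 4 times higher. Median centring also moved the median over all tested probe sets, from -0.003 to 0.051. The groups did not overlap, in the lower direction, for 5 of the 12 probe sets, where 6.52% of all tested probe sets did so, and in the higher direction for 0, where 6.58% did. Median centring left 4 lower without overlap, with the Crip1 groups then overlapping. By limma with Benjamini-Hochberg adjustment over all 27022 tested probe sets, 0 of the 12 were called, where 0.0037% of all probe sets were called, and 5 were lower and 0 higher at an unadjusted p under 0.05, where 3.36% were lower and 3.85% higher. Because these differences chose the genes, nothing is read from the counts.

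Within a group, the members were spread unevenly over the arrays. Among the 9 genes, deficient replicate 2 was the highest of the deficient arrays for 6 (S100a4, S100a6, S100a10, S100a13, Lgals1 and Anxa2) and the lowest for 0, whereas over all tested genes it was the highest for 34.9% and the lowest for 32.6%. Among the fl/fl arrays, replicate 3 was the lowest for 6 of the 9, against 31.2% of all tested genes. The 9 genes share arrays and are not replicates, so these shares are a description.

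Likeness of pattern was measured as the root mean square distance between log2 values, each centred on its mean over the 6 arrays, so that 0 would be the same pattern. S100a4 and S100a6 lay 0.15 apart, S100a6 and Lgals1 0.21, and S100a4 and Lgals1 0.29. Crip1 lay 0.25 from Lgals1, 0.35 from S100a6 and 0.39 from S100a4. From S100a4, S100a6 and Lgals1, Lgals3 lay 0.31 to 0.40 and S100a13 0.39 to 0.43. Anxa2 lay 0.45 to 0.48 from them, S100a10 0.48 to 0.51 and Anxa1 0.44 to 0.58. The nearest genes outside the group were Capg, an actin filament capping protein, at 0.09 from S100a6, Obi1 at 0.10 from S100a4 and Zfp629, a zinc finger gene, at 0.11 from Lgals1. Next came Gm11190 and Nucb2, which encodes a calcium-binding protein, at 0.12 and 0.16 from S100a6, Vstm2l and Kcnh7, a potassium channel gene, at 0.15 and 0.17 from S100a4, and Gm6943 and the kinesin gene Kif17 at 0.12 and 0.13 from Lgals1. Capg read 555, 681 and 491 in deficient replicates 1, 2 and 3, against 1146, 1227 and 904 in fl/fl replicates 1, 2 and 3. These distances contain the difference between the groups and were the smallest of 12275, so they carry no test.

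The measured S100 genes around S100a4 and S100a6 showed smaller differences or were too dim to be tested. S100a5, between them on chromosome 3, had a log2 difference of 0.02 (SE 0.22) with means of 162 in deficient arrays and 155 in fl/fl arrays. S100a3, on the other side of S100a4, was below the filter at means of 30.5 in deficient arrays and 50.5 in fl/fl arrays. S100a8 and S100a9, the neutrophil and monocyte S100 genes further along, were also below the filter, with S100a9 at means of 16.6 in deficient arrays and 9.13 in fl/fl arrays. At the far end of the cluster S100a1 was at 0.61 and S100a16 at 0.25, with S100a13 between S100a1 and S100a16 at -0.09.

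**Figure D3:**
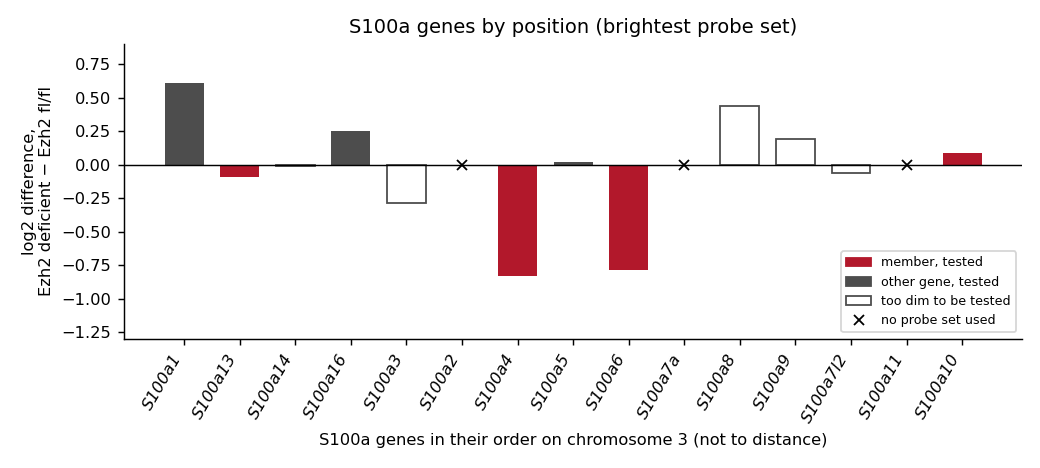
The log2 difference (vertical axis, Ezh2 deficient minus Ezh2 fl/fl) of S100a genes in their order along mouse chromosome 3 in RefSeq GRCm38.p6, by brightest probe set. Red bars are tested members, grey bars other tested genes, open bars genes too dim to be tested and crosses genes with no probe set used. S100a4 and S100a6 are the tested bars below -0.5, and S100a5 between them is at 0.02.

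The rest of the S100, galectin, annexin and Crip families was balanced. Of 35 listed genes, 17 were tested, of which 9 were lower and 8 higher with a median of -0.00, and limma called 0 in either direction (0 lower and 1 higher at an unadjusted p under 0.05, where 3.36% of all tested probe sets were lower and 3.85% higher). Their groups did not overlap for 1 lower and 2 higher genes, where 7.79% of all tested genes were lower and 6.43% higher without overlap. The gene with the unadjusted p was Lgals8, a galectin with a pair of sugar-binding domains, which averaged 2040 in deficient arrays and 1561 in fl/fl arrays (log2 difference 0.38, limma adjusted p = 0.663), with overlapping groups and 0.16 on its other probe set.

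The largest positive difference among the tested genes of these families was that of S100a1, a calcium sensor best known from heart muscle, with 1 fl/fl array far below the others. S100a1 read 161, 175 and 141 in deficient replicates 1, 2 and 3, against 131, 129 and 33.6 in fl/fl replicates 1, 2 and 3. Its dimmer probe set, below the filter, went the other way at -0.45. Lgalsl, a galectin-like gene, was at 0.51 and Anxa3 at 0.35, while the lowest values among the tested genes were those of Csrp1 at -0.27, the gut galectin Lgals4 at -0.26, Lgals12 at -0.21 and Anxa5 at -0.19. Of the genes below the filter, Crip3, named after its values were seen, had the lowest difference at -0.89, with no overlap and means of 32.6 in deficient arrays and 92.9 in fl/fl arrays. For Lgalsl, fl/fl replicate 1 read 273 where the other 5 arrays ran from 560 to 844. Lgals9, a galectin known as a ligand of Tim-3, averaged 4350 in deficient arrays and 4376 in fl/fl arrays.

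Proteins that the members bind were balanced too. Of 20 tested partners and receptors, 10 were lower and 10 higher with a median of 0.01, and limma called 0 (1 lower and 1 higher at an unadjusted p under 0.05, where 3.36% of all tested probe sets were lower and 3.85% higher). The lower one was Cd7, a counter-receptor of galectin-1, which read 884, 943 and 1142 in deficient replicates 1, 2 and 3, against 1366, 1632 and 1443 in fl/fl replicates 1, 2 and 3. Its groups did not overlap, and the log2 difference was -0.56 (SE 0.11, limma adjusted p = 0.347). The other galectin-1 counter-receptors were near 0, with Ptprc (CD45) at 0.04 and Spn (CD43) at -0.02, both named after their values were seen.

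The higher one was Lgals3bp, a secreted glycoprotein that binds galectin-3, which read 3174, 2342 and 2967 in deficient replicates 1, 2 and 3, against 1966, 2340 and 2217 in fl/fl replicates 1, 2 and 3. Deficient replicate 2 was level with fl/fl replicate 2, and the log2 difference was 0.36 (SE 0.12, limma adjusted p = 0.619). Trpv6, a calcium channel that binds S100a10 with Anxa2, was at 0.49 with overlapping groups, and the inhibitory receptor Lag3, a galectin-3 ligand, at 0.28. Mgat5, which builds the branched sugars that galectins bind, was at 0.16. Its other tested probe set, dimmer, was at 0.41 (SE 0.19) with overlapping groups, and a probe set below the filter was at -0.01. On the lower side were the formyl peptide receptor Fpr2 at -0.20, Sugt1 at -0.19, with 0.44 on its dimmer probe set, and the growth factor Fgf1 at -0.18. Of genes named after their values were seen, Ahnak, a very large scaffold of the S100a10 and Anxa2 complex, was at -0.18 (SE 0.14) and Myh9, the myosin heavy chain that S100a4 binds, at -0.06 (SE 0.05).

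Genes that accompany the members in effector and memory T cells split in both directions. With the members left out, 12 of 29 tested genes were lower and 17 higher, with a median of 0.02, and limma called 0 (7 lower and 4 higher at an unadjusted p under 0.05, where 3.36% of all tested probe sets were lower and 3.85% higher). The lowest were Capg at -0.88 (SE 0.15) and the chemokine receptor gene Cxcr6 at -0.52 (SE 0.23). The highest were the chemokine Ccl5 at 0.64 (SE 0.40) and the granzyme Gzma at 0.63 (SE 0.19). Groups overlapped for Cxcr6 and Ccl5, and Ccl5 read 659, 2715 and 981 in fl/fl replicates 1, 2 and 3. The groups did not overlap for 5 lower and 4 higher genes of the list, where 7.79% of all tested genes were lower and 6.43% higher without overlap. Glipr2 at -0.49, Plp2, a membrane protein, at -0.40 and Tagln2, an actin-binding protein, at -0.16 were among the lower ones without overlap, and among the higher ones were Tbx21, the master regulator of type 1 effector cells, at 0.40 and the interferon gamma gene at 0.38. These last 5 genes were named after their values were seen. Cd44, the usual surface marker of antigen-experienced T cells, averaged 984 in deficient arrays and 930 in fl/fl arrays, with a log2 difference of 0.09 (SE 0.13).

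Of the 15 tested naive T cell genes, 5 were lower and 10 higher with a median of 0.06, and limma called 0 (0 lower and 1 higher at an unadjusted p under 0.05, where 3.36% of all tested probe sets were lower and 3.85% higher). The highest were Itm2a, a membrane protein gene, at 0.74 and Dapl1 at 0.49, and the lowest were S1pr1, the receptor for lymph node exit, at -0.23 and Ccr9 at -0.15. Ccr7, a homing receptor of naive cells, was at 0.11. Summed over the list, intensity ran from 109053 to 111654 in deficient arrays and from 99016 to 107559 in fl/fl arrays. Itm2a and Dapl1 had the largest differences in mean intensity within this sum. Itm2a averaged 5444 in deficient arrays and 3292 in fl/fl arrays. Dapl1 averaged 9833.5 in deficient arrays and 7273 in fl/fl arrays, with overlapping groups.

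**Figure D4:**
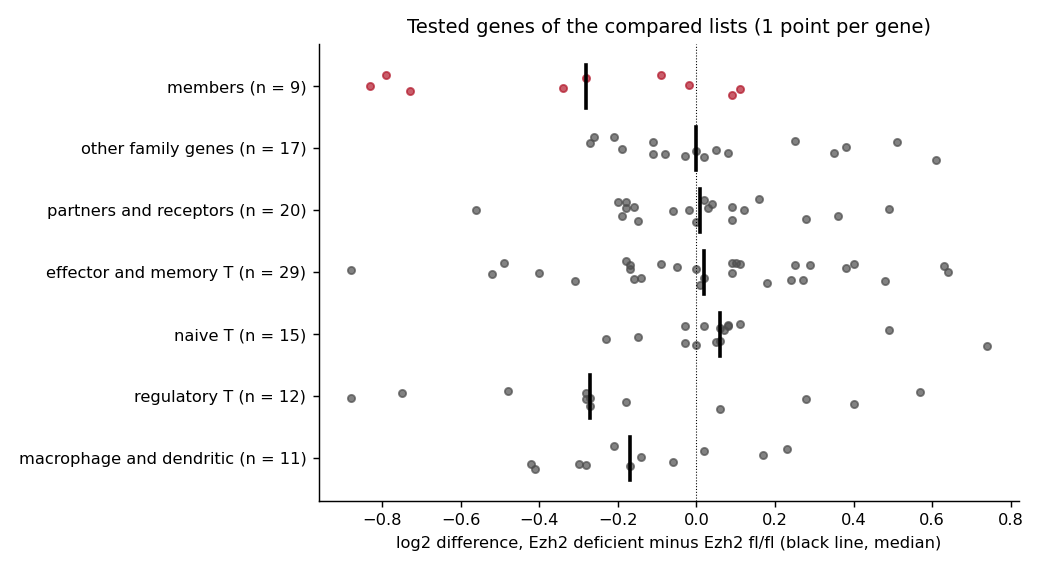
The log2 difference (horizontal axis, Ezh2 deficient minus Ezh2 fl/fl) of each tested gene in the members and in 6 other lists, 1 point for each gene by its brightest probe set, with the median as a black line and vertical scatter for legibility only. The members' median is -0.28 and that of the regulatory T cell markers is -0.27, with -0.17 for the macrophage and dendritic cell markers and medians from -0.00 to 0.06 in the other 4 lists.

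Markers of regulatory T cells, in which S100a4, S100a6 and Lgals1 can be high, were mostly lower. Of 12 regulatory T cell markers, 8 were lower and 4 higher with a median of -0.27, and limma called 0 (5 lower and 2 higher at an unadjusted p under 0.05, where 3.36% of all tested probe sets were lower and 3.85% higher). The groups did not overlap for 6 lower and 2 higher markers, where 7.79% of all tested genes were lower and 6.43% higher without overlap. The lowest were Capg, which stands on this list too, and the integrin gene Itgae at -0.75, and the highest were Izumo1r at 0.57 and the inhibitory receptor gene Ctla4 at 0.40, the brightest being Izumo1r. Foxp3, their defining transcription factor, averaged 263 in deficient arrays and 327 in fl/fl arrays with no overlap. The summed level ran from 14524 to 17181 in deficient arrays and from 16640 to 16978 in fl/fl arrays. The part of these cells in the differences of the members was not tested.

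Macrophage and dendritic cell markers, from cells rich in Lgals3, Anxa1 and Anxa2, were lower for 8 of 11 tested genes with a median of -0.17, and limma called 0 (1 lower and 0 higher at an unadjusted p under 0.05, where 3.36% of all tested probe sets were lower and 3.85% higher). Csf1r, the receptor of a macrophage growth factor, read 264, 272 and 257 in deficient replicates 1, 2 and 3, against 443, 303 and 366 in fl/fl replicates 1, 2 and 3. The other low value among the tested genes was that of Fcgr3, an antibody receptor gene, at -0.41, and the highest were Adgre1 at 0.23 and Cst3 at 0.17. Of the markers below the filter, Tyrobp was higher at 0.70 with no overlap, with means of 92.8 in deficient arrays and 41.8 in fl/fl arrays. The others below it were Itgam at -0.00, Cd14 at -0.16 and Flt3 at -0.47, with overlapping groups. These below-filter markers were named after their values were seen. The defining gene Lyz2 was dim, averaging 137 in deficient arrays and 155 in fl/fl arrays, and the brightest marker was Ctss, a protease of antigen-presenting cells, at 7624 in deficient arrays and 8064 in fl/fl arrays. The summed level ran from 10815 to 11199 in deficient arrays and from 10352 to 13796 in fl/fl arrays, the highest being fl/fl replicate 1. Without that array 4 of the markers then tested were lower. The part of these cells in the members' differences was not tested.

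Fewer markers were tested of each remaining cell type, at most 7, and limma called none of them. Of 7 natural killer cell markers 3 were lower, from Klrc1 at 0.74 and Gzma at 0.63 to Klrk1 at -0.33 and Fcgr3 at -0.41, with Prf1 the brightest at -0.01. At an unadjusted p under 0.05, 0 of them were lower and 2 higher, where 3.36% of all tested probe sets were lower and 3.85% higher. Without overlap, 2 of them were lower and 2 higher, where 7.79% of all tested genes were lower and 6.43% higher. Of 7 stromal and endothelial markers 4 were lower, from Col1a1 at 0.29 and Pdpn at 0.15 to Pecam1, the brightest, at -0.20 and Pdgfra at -0.21. Of 5 B cell markers 3 were lower, from Cd22 at 0.36 and Pax5 at 0.33 to Cd79b at -0.10 and Ms4a1 at -0.12. The immunoglobulin gene Ighm was the brightest, at -0.10, and was not dim, averaging 10458 in deficient arrays and 11201 in fl/fl arrays. Of 3 neutrophil markers 2 were lower, with Mpo, the brightest, at 0.14, Ngp at -0.01 and Ltf at -0.13. The 1 tested erythroid marker, Hba-a1, was at -0.38, with an unadjusted p under 0.05, where 3.36% of all tested probe sets were lower at that threshold. Summed levels overlapped between the groups for each of these 5 lists, and the part of these cells in the members' differences was not tested.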

How the data were processed

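The deposited table holds intensities on a linear scale, scaled by the authors: trimmed by 2% at either end, each array had a mean of 500.002; the software is not given in the sources used here. The 64 control probe sets were removed and the arrays quantile normalised with limma (version 3.58.1, R 4.3.3). Values became log2(intensity + 43.4), the 20th percentile of positive values. Probe sets with a mean below the 40th percentile were left out, leaving 27022. Groups were compared by lmFit and eBayes with a trend, two-sided, over all 6 arrays with no covariate, and called at a Benjamini-Hochberg adjusted p under 0.05. The step was tested on simulated data. Of the probe sets, 34945 had 1 symbol, 932 several and 9160 none. A gene is read by its brightest tested probe set. Lists count genes, whereas the shares beside their counts at an unadjusted p are of all tested probe sets. Such shares over genes were not computed.

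The members and lists were chosen with earlier results of these data known. Named genes were all members, the 4 highest and 4 lowest of the family and partner lists, the 2 highest and 2 lowest of the other lists, the brightest marker, and the 3 genes most like Lgals1, S100a4 and S100a6. Other named genes, such as Cd44, Ccr7, Foxp3, Lyz2, Lgals9 and the neighbours of S100a4, were chosen after their values were seen. Alternatives covered scaling, pseudocount, filter, variance model (with statmod 1.5.0), array weights, probe set choice and each array left out.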

Additional observations from a re-analysis of the deposited data

How the results depend on the processing

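S100a4, S100a6, Lgals1 and Crip1 stayed lower under all 16 alternatives run, and no member probe set was called under any of them. Crip1 was at -0.18 with median centring, and its groups then overlapped. The members' median log2 difference was -0.28, with -0.18 under median centring, -0.19 with a pseudocount 4 times higher, and -0.36 to -0.12 with 1 array left out. Over all tested probe sets the median was -0.003, and 0.051 under median centring. With 1 array left out the difference ran from -0.00 to 0.23 for S100a10, from -0.18 to -0.02 for S100a13, from -0.36 to 0.18 for Anxa2, from -0.03 to 0.22 for Anxa1 and from -0.57 to -0.12 for Lgals3. Median centring put S100a13 at 0.00, S100a10 at 0.21 and Anxa2 at 0.04, and a pseudocount 4 times higher put Lgals3 at -0.19. The number of probe sets called overall was 1, but 3 with the deposited scaling, 2 with median centring, 2 by robust eBayes, 3 with array weights, and 1 to 6 with 1 array left out. No paired analysis was possible because the sample titles carry 1 series of numbers and none is shared between the groups.

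Counts of lower genes in the compared lists moved mainly with the filter, since fewer or more genes were then tested. Without the filter there were 18 lower for the other family genes, 5 for neutrophil, 5 for B cell, 5 for natural killer cell, 7 for stromal and 3 for erythroid markers. With the filter at the 60th percentile there were 5 lower for the other family genes, 6 for partners, 2 for macrophage and dendritic cell, 0 for neutrophil, 1 for natural killer cell, 1 for stromal and 0 for erythroid markers. Naive T cell genes had 2 lower with the deposited scaling and 2 with median centring, which also left 1 lower among T cell markers and 1 among neutrophil markers. With array weights there was 1 lower neutrophil marker and there were 2 lower stromal markers. With 1 array left out, the lower genes numbered 3 to 7 for naive T cell genes, 4 to 9 for macrophage and dendritic cell, 1 to 2 for neutrophil, 1 to 4 for natural killer cell and 2 to 5 for stromal markers. The cause of these shifts other than the filter was not tested. With 3 arrays a group, dim members such as Lgals3 and Anxa1 are read least precisely.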
